A study of Mus musculus with 9 samples.

Results

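Transcripts that mark macrophages were measured in samples sorted as regulatory T cells (Tregs), CD4 T cells that carry the transcription factor Foxp3 and hold immune responses in check. The members were a named list of 34 macrophage genes, matched by symbol to the rows of the expression table. Of these, 31 were measured, out of 21023 named genes in all. C1qc, Lyz2 and Cd14 matched no row and are not analysed here. All mice were C57BL/6, 8 to 12 weeks old, and carried Foxp3EGFP, a green fluorescent reporter placed in Foxp3. CD4+ GFP+ cells were sorted after enrichment of lymphocytes on Percoll. Resolving lung Tregs came from enzymatically digested lungs of mice given Escherichia coli lipopolysaccharide (LPS) into the trachea at 3 mg/kg. Control lung Tregs came from uninjured lungs, and resolving splenic Tregs from mechanically dissociated spleens of LPS-injured mice. Each group had 3 arrays, each from 1 sample, and the sources used here do not say whether a sample was 1 mouse or a pool, nor the day of harvest. The p-values therefore rest on the spread from sample to sample, part of which may be technical.

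Macrophages are tissue phagocytes that take up particles through scavenger, Fc and lectin receptors and degrade them with lysosomal cathepsins. In the lung, resident alveolar macrophages clear surfactant and carry a characteristic set of transcripts, among them Marco, Chil3, Car4, Fabp4 and Ear2. After injury, monocytes enter the lung and become macrophages that express Spp1, Trem2, Apoe and C1q genes before some of them take on the alveolar form. The members were therefore read in 3 sets, with 7 alveolar genes, 9 measured genes of monocyte-derived or interstitial macrophages, and 15 measured general phagocyte genes. Several of them are not exclusive to macrophages: Itgam and Itgax are also carried by other myeloid cells and some lymphocytes, and Ctsb, Ctsd, Ctss and Fabp5 by many cell types. In a bulk sample, a larger number of cells of a type cannot be told apart from more RNA per cell.

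The levels were log2 expression values, and a gene was called above the dim level where it exceeded the 95th percentile of 915 olfactory receptor genes on that array (3.32 to 3.52). The Treg genes Foxp3 (10.43 to 10.75) and Cd4 (10.82 to 11.06) were high on all 9 arrays, and all 9 measured Treg identity genes lay above the dim level on every array. Of the 31 macrophage members, 14 were above the dim level on all 9 arrays: Apoe, C1qa, C1qb, Cd68, Chil3, Csf1r, Ctsb, Ctsd, Ctsl, Ctss, Fabp5, Itgam, Mrc1 and Tlr2. Arg1, the arginase of alternatively activated macrophages, was below it on every array. Resolving lung replicate 1 stood apart. It had 30 members above the dim level, whereas the other 8 arrays had 15 to 21. It was the highest of the 9 arrays for 29 of 31 members, which held for 17.7% of all genes. On this array the mean levels of the fibroblast (4.67), endothelium (4.54) and neutrophil (4.11) marker lists also exceeded those of resolving lung replicates 2 and 3 (2.58 and 2.65, 3.60 and 3.55, 3.33 and 3.29). Control lung replicate 1 likewise exceeded control lung replicates 2 and 3 in these lists. It stood at 3.88 (2.51 and 2.42), 4.88 (3.56 and 3.32) and 3.51 (3.18 and 3.00), and its endothelium mean was the highest of the 9 arrays. Xist, which is transcribed from the inactive X chromosome, read 2.44 on resolving lung replicate 1 and 2.33 on spleen replicate 1, and 8.23 to 9.13 on the other 7 arrays. The part of these differences in the results was not tested, and results are given with and without resolving lung replicate 1.

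**Figure D1:**
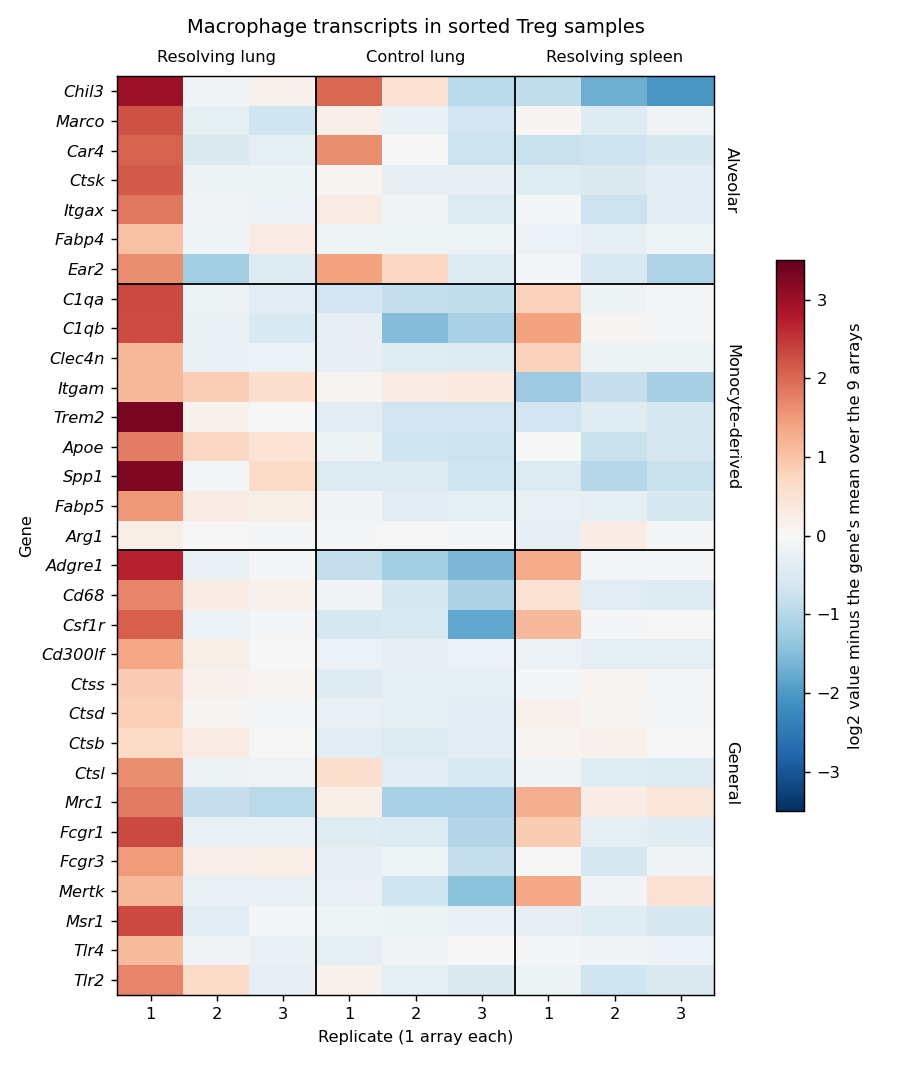
Log2 value of each of the 31 measured macrophage genes (rows, grouped as alveolar, monocyte-derived and general) on each of the 9 arrays (columns, by group and replicate), minus the mean of that gene over the 9 arrays, with red above and blue below that mean. Resolving lung replicate 1 is the highest array for 29 of the 31 genes.

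The promoters of 5 members, drawn from the 3 sets, are shown. All 5 hold a match to the letters searched for, so they do not represent the promoters without one. Of the 31 measured members, 21 had at least 1 promoter in the RefSeq table (GRCm38.p6), with 25 promoters in all, each reaching from 250 bases before to 50 after a transcription start. The letters GAGGAA, the core of the sites of PU.1, a transcription factor that myeloid cells depend on, were found on either strand in 15 of these 25 promoters (60.0%) and in 28.3% of all 32851 promoters. The longer GAGGAAG, which contains it, was found in 11 of 25 (44.0%) and in 13.6% of all. CACGTG, the centre of the sites of TFEB and TFE3, regulators of lysosomal genes, was found in 2 of 25 (8.0%), those of Ctsd and Ctsl, and in 7.15% of all. These are matches of letters and no test was made. Capitals mark GAGGAA or CACGTG, or the same letters read on the other strand, and each sequence is written along the strand of its gene.
Itgam, chr7:128062390-128062689, plus strand: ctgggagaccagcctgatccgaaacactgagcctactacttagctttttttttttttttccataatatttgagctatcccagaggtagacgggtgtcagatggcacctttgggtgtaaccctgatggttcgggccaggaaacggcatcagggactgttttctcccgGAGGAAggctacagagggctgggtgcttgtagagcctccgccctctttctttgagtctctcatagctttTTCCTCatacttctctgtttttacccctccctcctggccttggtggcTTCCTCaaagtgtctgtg
Spp1, chr5:104434861-104435160, plus strand: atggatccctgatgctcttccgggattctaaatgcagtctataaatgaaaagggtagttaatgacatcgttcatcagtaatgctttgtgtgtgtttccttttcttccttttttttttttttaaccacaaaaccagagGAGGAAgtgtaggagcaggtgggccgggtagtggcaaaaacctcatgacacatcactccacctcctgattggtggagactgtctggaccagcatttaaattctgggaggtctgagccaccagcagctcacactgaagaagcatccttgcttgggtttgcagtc
Trem2, chr17:48346151-48346450, plus strand: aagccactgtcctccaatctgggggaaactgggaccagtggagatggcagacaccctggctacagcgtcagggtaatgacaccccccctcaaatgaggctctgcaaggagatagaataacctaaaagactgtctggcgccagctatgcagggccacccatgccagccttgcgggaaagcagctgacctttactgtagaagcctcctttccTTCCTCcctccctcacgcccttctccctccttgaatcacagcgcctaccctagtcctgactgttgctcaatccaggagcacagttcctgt
Marco, chr1:120504975-120505274, minus strand: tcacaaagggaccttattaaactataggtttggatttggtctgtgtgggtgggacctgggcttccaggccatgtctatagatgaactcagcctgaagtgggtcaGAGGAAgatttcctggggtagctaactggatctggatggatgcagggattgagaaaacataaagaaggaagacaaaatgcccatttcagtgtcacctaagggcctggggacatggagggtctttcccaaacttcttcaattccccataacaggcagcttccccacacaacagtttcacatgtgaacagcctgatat
Ctsd, chr7:142387778-142388077, minus strand: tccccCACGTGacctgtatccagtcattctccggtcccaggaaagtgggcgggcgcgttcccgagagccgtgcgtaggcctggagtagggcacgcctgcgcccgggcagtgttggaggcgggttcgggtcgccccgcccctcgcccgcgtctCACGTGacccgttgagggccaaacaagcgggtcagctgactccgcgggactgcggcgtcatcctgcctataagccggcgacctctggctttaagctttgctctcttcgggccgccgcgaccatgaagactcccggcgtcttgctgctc
Itgam held 3 GAGGAA matches, Spp1, Trem2 and Marco 1 each, and Ctsd 2 CACGTG matches.

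The comparison of resolving lung with control lung sets injured against uninjured mice within 1 organ. The alveolar genes of the 2 groups overlapped throughout, whereas most of the monocyte-derived and general genes were higher on every resolving lung array than on any control array. This was so for 0 of 7 alveolar, 7 of 9 monocyte-derived and 9 of 15 general genes, or 16 of 31 members (51.6%). Among all 21023 genes 8.79% lay higher without overlap in resolving lung. None of the 31 members lay lower without overlap, against 7.5% of all genes. No member passed the threshold of an adjusted p under 0.05 with limma (a linear model over all genes), in which 0.133% of all genes were higher and 0.323% lower. The smallest adjusted p of a member was 0.0782, and 12 of 31 members had an unadjusted p under 0.05 (2943 of 21023 genes).

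Among the alveolar genes, Chil3, a chitinase-like secreted protein, was the 1 gene above the dim level on all 9 arrays. It stood at 10.02, 6.90 and 7.12 in resolving lung replicates 1, 2 and 3, and at 9.01, 7.51 and 6.05 in control lung. The ranges overlapped in part, replicate 1 was the high array of each group, and the difference was 0.49 (SE 0.95, limma adjusted p = 0.866). Ear2, an eosinophil-associated ribonuclease, stood at 6.27, 3.43 and 4.21 in resolving lung, against 6.05, 5.39 and 4.21 in control lung, a difference of -0.58 (SE 0.73, limma adjusted p = 0.775). Car4, a membrane carbonic anhydrase, stood at 5.53, 2.95 and 3.12 in resolving lung, against 5.09, 3.47 and 2.70 in control lung, a difference of 0.11 (SE 0.76, limma adjusted p = 0.967). In both genes the highest array of each group was replicate 1, and Car4 was above the dim level on 1 resolving and 2 control arrays. Marco, a scavenger receptor for particles and bacteria, was above the dim level on resolving lung replicate 1 alone, at 5.08, 2.53 and 2.16 in resolving lung, against 3.03, 2.62 and 2.17 in control lung. Fabp4, a fatty acid binding protein, was also above it on that array alone, at 3.41, 2.23 and 2.66 in resolving lung and 2.23 on each control array. The collagen-degrading cathepsin Ctsk (4.76, 2.42 and 2.44 in resolving lung, 2.67, 2.33 and 2.33 in control lung) and the integrin chain Itgax (5.16, 3.19 and 3.11 in resolving lung, 3.62, 3.23 and 2.84 in control lung) showed the same single high array. Without resolving lung replicate 1 the difference was below 0 for 6 of 7 alveolar genes, between -1.40 for Ear2 and 0.21 for Fabp4, and the median of the set was -0.26, against 0.54 with all arrays. Chil3 was then at -0.51 (SE 0.76), Car4 at -0.72 (SE 0.58) and Marco at -0.26 (SE 0.26), with limma adjusted p-values of 0.853, 0.695 and 0.761. Control lung replicate 1 was itself the highest control array for 6 of these 7 genes, and with replicate 1 left out of every group 4 of the 7 differences were above 0 and 3 below (median 0.10). Chil3 was then at 0.23, Fabp4 at 0.21, Itgax at 0.12 and Ctsk at 0.10, while Car4 and Marco were at -0.05 and Ear2 at -0.98. The direction of the alveolar genes thus depended on which arrays were left out.

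Beside the alveolar genes, the epithelial list had mean levels of 5.17, 4.55 and 4.56 in resolving lung, against 6.61, 5.69 and 5.65 in control lung, with control replicate 1 the highest of the 9 arrays. Of its 17 measured genes, 16 had a difference below 0 and 3 passed the threshold, the surfactant protein genes Sftpa1 and Sftpb and the phosphate transporter gene Slc34a2. Slc34a2 alone passed without resolving lung replicate 1. The endothelium list had mean levels of 4.54, 3.60 and 3.55 in resolving lung, against 4.88, 3.56 and 3.32 in control lung. Replicate 1 was the highest of each lung group there, as it was for Car4. The part of epithelial and endothelial transcripts in the alveolar values, those of Car4 among them, was not tested. A further list of 16 measured alveolar macrophage genes, some of which (Abcg1, Cd2 and Atp6v0d2) other cells express too, had 0 genes past the threshold of limma (1 had an unadjusted p under 0.05), with 6 differences above 0 and 10 below (median -0.06, against 0.0086 over all genes).

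Among the monocyte-derived genes, Apoe, the lipid carrier of foamy and repairing macrophages, had the smallest p of the set. It stood at 7.13, 6.06 and 5.84 in resolving lung, against 5.17, 4.65 and 4.59 in control lung. All 3 resolving arrays exceeded all 3 control arrays, by 1.54 on average (SE 0.35, 2.91-fold, limma adjusted p = 0.110). Without resolving lung replicate 1 the difference was 1.14 (SE 0.26, limma adjusted p = 0.133). Spp1, the secreted protein osteopontin, stood at 7.26, 3.94 and 4.67 in resolving lung, against 3.50, 3.51 and 3.30 in control lung. Its difference was 1.86 (SE 0.71, 3.62-fold, limma adjusted p = 0.289), and it was 0.87 (SE 0.23) without replicate 1. Trem2, a lipid-sensing receptor, stood at 6.28, 3.06 and 2.94 in resolving lung, against 2.55, 2.28 and 2.29 in control lung. The groups did not overlap, but Trem2 was above the dim level on resolving lung replicate 1 alone, so no fold is given (limma adjusted p = 0.366).

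C1qa and C1qb encode chains of C1q, the first component of complement. C1qa stood at 8.04, 5.55 and 5.36 in resolving lung, against 5.05, 4.88 and 4.87 in control lung, without overlap (difference 1.38, SE 0.64, limma adjusted p = 0.385). C1qb stood at 9.41, 6.90 and 6.60 in resolving lung, against 6.84, 5.60 and 6.00 in control lung, where control replicate 1 exceeded resolving replicate 3 (difference 1.49, SE 0.75, limma adjusted p = 0.424). Itgam, the CD11b chain of complement receptor 3, had a narrow spread, at 7.74, 7.46 and 7.19 in resolving lung, against 6.71, 6.89 and 6.95 in control lung (difference 0.61, SE 0.16, limma adjusted p = 0.153). Fabp5, a fatty acid binding protein, stood at 7.08, 5.86 and 5.77 in resolving lung, against 5.47, 5.21 and 5.23 in control lung (difference 0.93, SE 0.31, limma adjusted p = 0.227). The lectin receptor Clec4n was above the dim level on resolving lung replicate 1 alone (4.53, 3.14 and 3.16 in resolving lung, 3.07, 2.94 and 2.93 in control lung). Arg1 lay between 2.96 and 3.23 in resolving lung and between 2.91 and 2.97 in control lung, below the dim level throughout. All 9 monocyte-derived genes had a difference above 0 with resolving lung replicate 1 (median 1.38) and without it (median 0.52), and likewise without replicate 1 of every group (median 0.59). These counts include dim readings. Without resolving lung replicate 1, Arg1, Trem2 and Clec4n were below the dim level on every lung array left, and Arg1 was at 0.03 (SE 0.14).

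**Figure D2:**
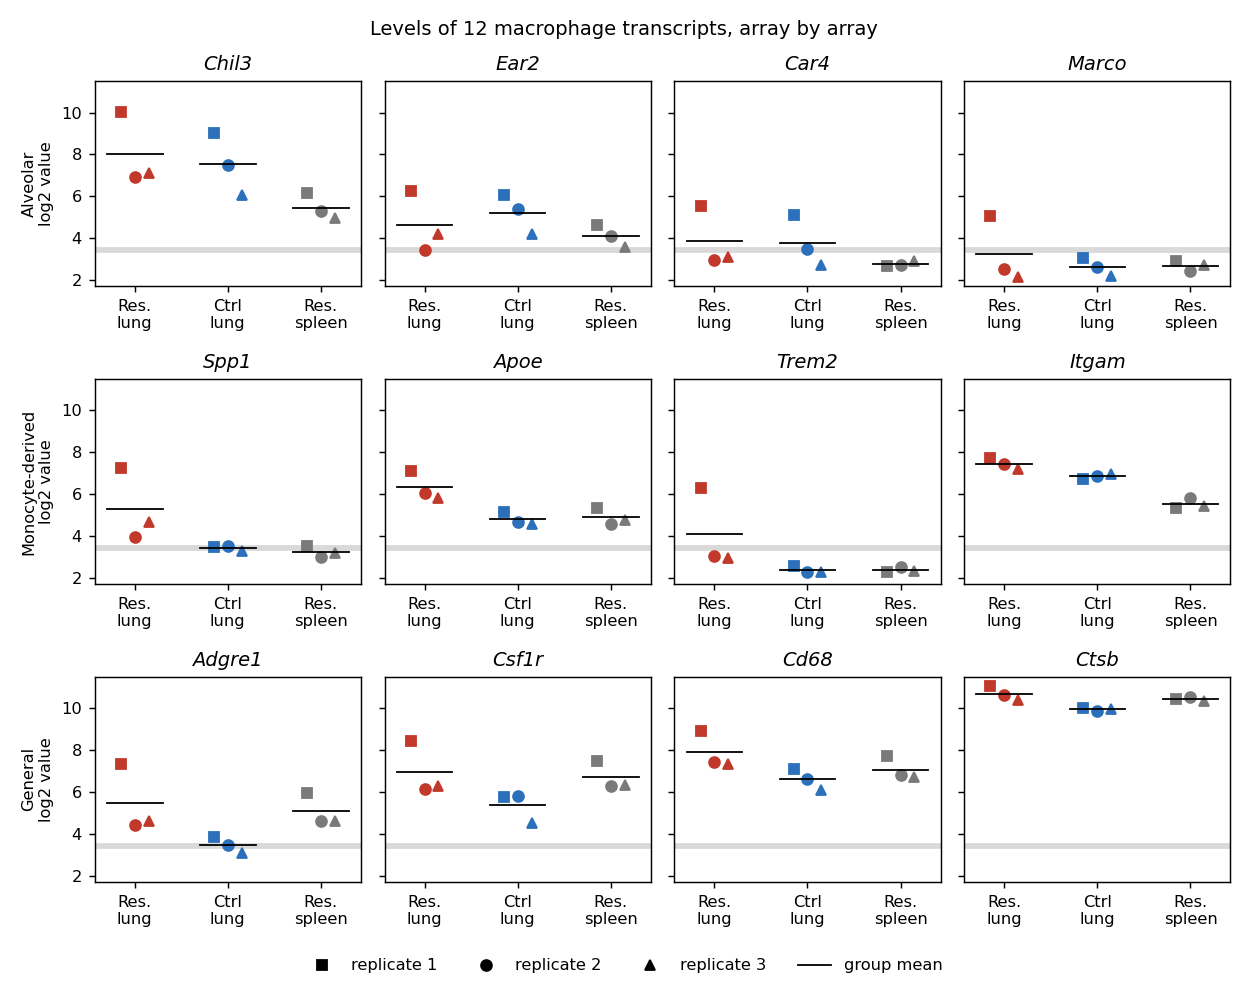
Log2 values of 12 macrophage genes on each array, with 4 alveolar genes in the top row, 4 monocyte-derived genes in the middle row and 4 general genes in the bottom row. Squares, circles and triangles are replicates 1, 2 and 3, horizontal lines are group means of 3 arrays, and the grey band is the dim level (3.32 to 3.52). In the top row the resolving and control lung arrays overlap, and in the other rows every resolving lung array lies above every control lung array. The genes drawn were picked from each set. In the whole sets this held for 7 of 9 monocyte-derived and 9 of 15 general genes, and the others overlapped.

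The general genes comprise lysosomal proteases, 4 cathepsins that were above the dim level on every array, and receptors and phagosome proteins. Ctsb, a cysteine protease of lysosomes, stood at 11.06, 10.66 and 10.40 in resolving lung, against 10.01, 9.90 and 9.99 in control lung. Its difference of 0.74 (SE 0.15, 1.67-fold) gave the smallest adjusted p of all members, 0.0782 with limma, and 0.0652 without resolving lung replicate 1 (difference 0.56, SE 0.09). Its adjusted p was 0.0440 without resolving lung replicate 3 and 0.0423 among genes above the dim level on average, the only 2 settings in which it passed. The cathepsins Ctss (10.71, 9.97 and 9.93 in resolving lung, 9.37, 9.51 and 9.49 in control lung) and Ctsd (10.73, 9.92 and 9.84 in resolving lung, 9.64, 9.56 and 9.50 in control lung) were also without overlap. Their differences were 0.75 (SE 0.19) and 0.59 (SE 0.21), with limma adjusted p-values of 0.129 and 0.250. Ctsl was an exception among the cathepsins, at 6.66, 4.85 and 4.90 in resolving lung, against 5.63, 4.63 and 4.51 in control lung, where control replicate 1 lay above resolving replicates 2 and 3.

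Of the receptors and phagosome genes, Adgre1, an adhesion receptor used to stain macrophages, stood at 7.36, 4.41 and 4.64 in resolving lung, against 3.85, 3.47 and 3.11 in control lung. Its difference was 1.99 (SE 0.74, 3.98-fold, limma adjusted p = 0.274), and 1.05 (SE 0.41) without resolving lung replicate 1. Csf1r, the receptor of the macrophage growth factor CSF1, stood at 8.44, 6.16 and 6.31 in resolving lung, against 5.76, 5.81 and 4.53 in control lung (difference 1.61, SE 0.65, limma adjusted p = 0.320). Cd68, a glycoprotein of late endosomes, stood at 8.92, 7.46 and 7.34 in resolving lung, against 7.09, 6.65 and 6.11 in control lung (difference 1.29, SE 0.46, limma adjusted p = 0.256). In all 3 genes the lowest resolving array exceeded the highest control array. Fcgr3, a low-affinity Fc receptor, stood at 5.39, 4.07 and 4.13 in resolving lung, against 3.62, 3.75 and 3.06 in control lung, also without overlap (difference 1.05, SE 0.36, limma adjusted p = 0.241). Fcgr1, the high-affinity Fc receptor (5.95, 3.38 and 3.38 in resolving lung, 3.20, 3.15 and 2.60 in control lung), and Cd300lf, a lipid-binding receptor (4.15, 3.02 and 2.83 in resolving lung, 2.59, 2.51 and 2.60 in control lung), did not overlap either. Both were above the dim level on resolving lung replicate 1 alone among the lung arrays. Mrc1, the mannose receptor, which alveolar macrophages and tissue macrophages share, overlapped, at 7.47, 4.85 and 4.72 in resolving lung, against 5.86, 4.53 and 4.53 in control lung. The efferocytosis receptor Mertk stood at 5.05, 3.62 and 3.62 in resolving lung, against 3.63, 3.19 and 2.46 in control lung, and its groups overlapped by 1 array. The scavenger receptor Msr1 (5.02, 2.30 and 2.67 in resolving lung, 2.55, 2.54 and 2.46 in control lung) and Tlr4, the receptor of LPS (4.26, 3.06 and 2.92 in resolving lung, 2.80, 3.03 and 3.17 in control lung), were above the dim level on resolving lung replicate 1 alone. Tlr2, which senses bacterial lipoproteins, overlapped at 5.97, 4.93 and 3.96 in resolving lung, against 4.38, 3.95 and 3.74 in control lung. Without resolving lung replicate 1, 11 of 15 general genes had a difference above 0 (median 0.42, against 0.82 with it), and the 4 below 0, Ctsl, Mrc1, Msr1 and Tlr4, lay between -0.19 and -0.02. Without replicate 1 of every group 13 of 15 were above 0 (median 0.50), Mrc1 at 0.26 among them.

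The 16 members without overlap necessarily stayed above every control array when resolving lung replicate 1 was dropped, so this is no separate support. With replicates 2 and 3 alone no further member joined them, while 13.1% of all genes lay above every control array. Of the 16, 12 were above the dim level on both replicates 2 and 3. These 12 were Adgre1, Apoe, C1qa, Cd68, Csf1r, Ctsb, Ctsd, Ctss, Fabp5, Fcgr3, Itgam and Spp1. None of the 7 alveolar genes was among them. None of the 31 members passed the threshold without resolving lung replicate 1, in which the smallest adjusted p was 0.0520 (Ctss). The median difference of the 31 members was 0.76 with it and 0.39 without it, against 0.0086 and 0.0058 over all genes.

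**Figure D3:**
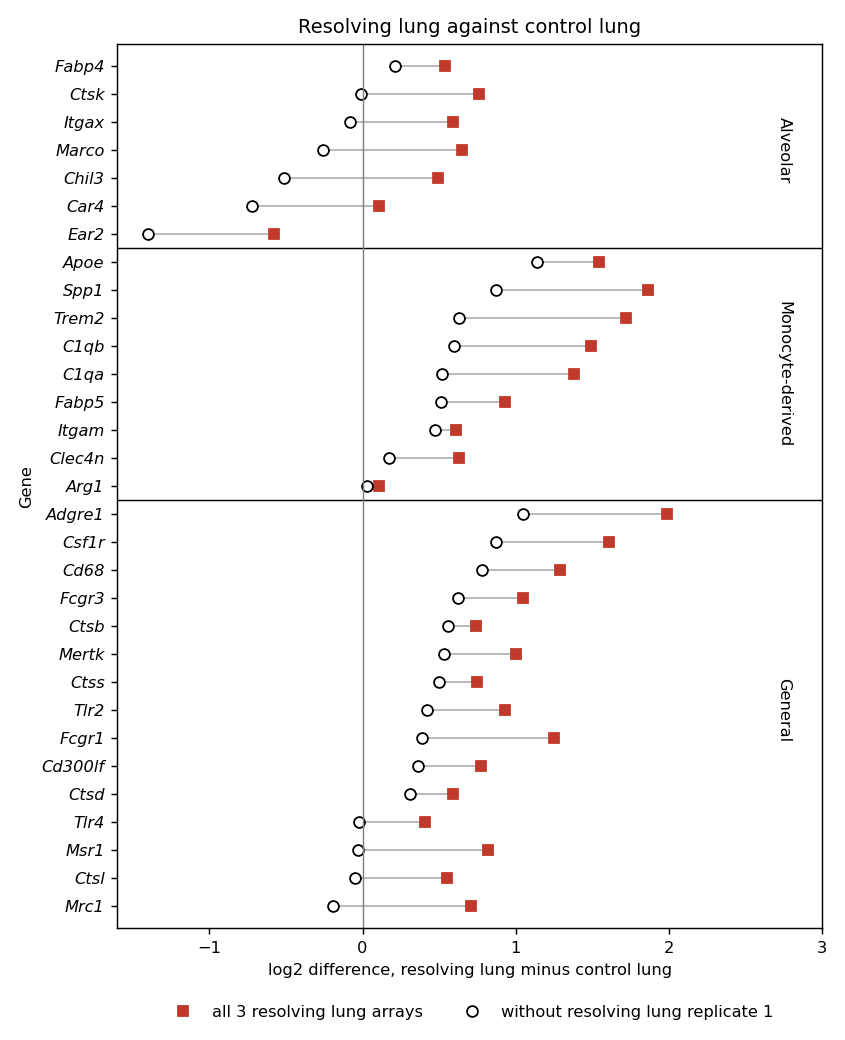
Difference in log2 value, resolving lung minus control lung, for each of the 31 genes, with all 3 resolving lung arrays (red squares) and without resolving lung replicate 1 (open circles). Without that array 6 of 7 alveolar genes lie below 0 and all 9 monocyte-derived genes lie above 0. Among these, Marco, Fabp4, Ctsk, Arg1, Trem2 and Clec4n were then below the dim level on every lung array left. With replicate 1 left out of every group, which is not drawn, 4 of 7 alveolar and all 9 monocyte-derived genes were above 0, and no gene passed the threshold in any of these settings.

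Read array by array, the 3 sets differed in their relative levels. Each gene was centred on its mean over the 9 arrays, and the mean of each set was taken. The alveolar mean stood at 1.99, -0.38 and -0.21 in resolving lung replicates 1, 2 and 3, 0.78, 0.07 and -0.54 in control lung, and -0.33, -0.72 and -0.68 in spleen. The monocyte-derived mean stood at 1.89, 0.14 and 0.09 in resolving lung, -0.27, -0.53 and -0.51 in control lung, and 0.01, -0.38 and -0.45 in spleen. The general mean stood at 1.59, -0.05 and -0.12 in resolving lung. In control lung it stood at -0.22, -0.48 and -0.77, and in spleen at 0.39, -0.20 and -0.15. Thus every resolving lung array exceeded every control lung array in the monocyte-derived and general means and not in the alveolar mean. The monocyte-derived mean less the general mean overlapped between the 2 lung groups. It stood at 0.31, 0.19 and 0.21 in resolving lung, against -0.04, -0.05 and 0.26 in control lung. The alveolar mean less the general mean stood at 0.41, -0.33 and -0.09 in resolving lung, 1.00, 0.55 and 0.23 in control lung, and -0.72, -0.52 and -0.53 in spleen. It was therefore positive on all 3 control lung arrays and on resolving lung replicate 1, and negative on the other 5. The sign is relative to means over the 9 arrays, which include the high resolving lung replicate 1. Of the alveolar genes, Marco, Fabp4 and Ctsk were above the dim level on that array alone, so much of the alveolar mean elsewhere rests on dim values. The alveolar mean less the monocyte-derived mean stood at 0.10, -0.52 and -0.30 in resolving lung, against 1.04, 0.60 and -0.03 in control lung, where control replicate 3 lay below resolving replicate 1. Replicate 1 was the highest of its group in all 3 sets in resolving lung, control lung and spleen. The size of this excess differed: over the mean of replicates 2 and 3, the median excess was 2.45 for alveolar genes in resolving lung, 0.63 in control lung and 0.36 in spleen. For monocyte-derived genes it was 1.38, 0.17 and 0.41 in the same groups, and for general genes 1.52, 0.32 and 0.37. These values are a description and carry no test.

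**Figure D4:**
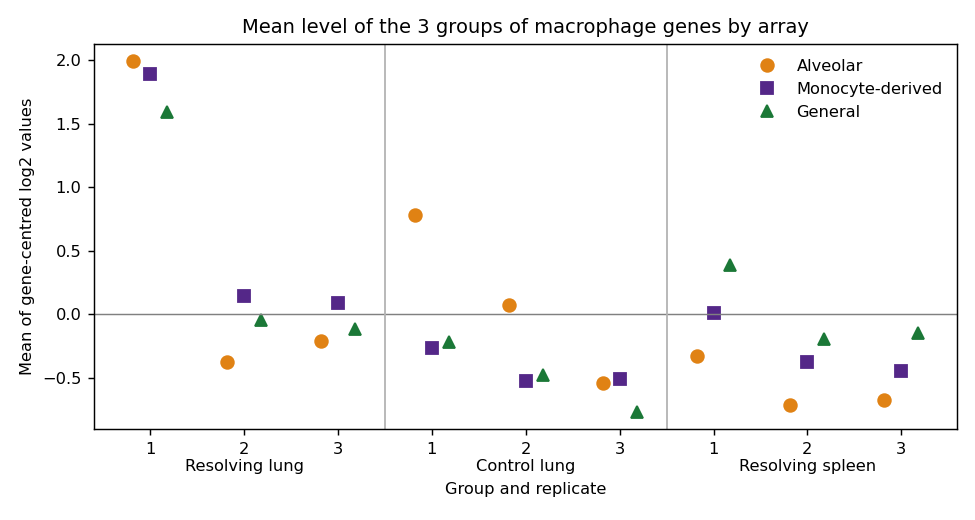
Mean of the gene-centred log2 values of the 7 alveolar, 9 monocyte-derived and 15 general genes on each array, by group and replicate. Resolving lung replicate 1 is high in all 3 sets (1.59 to 1.99), control lung replicate 1 is high in the alveolar set (0.78), and spleen replicate 1 is higher in the general set (0.39) than in the alveolar set (-0.33).

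The comparison of resolving lung with resolving spleen sets 2 organs of injured mice against each other. Itgam was the 1 member past the threshold of 31, at 7.74, 7.46 and 7.19 in resolving lung, against 5.33, 5.80 and 5.44 in spleen (difference 1.94, SE 0.16, 3.83-fold, limma adjusted p = 0.00176). Higher calls made up 2.64% of all genes and lower calls 2.82%. The call of Itgam held in all 20 other settings (adjusted p between 0.000661 and 0.0496). Arrays did not overlap for 11 members that were higher in resolving lung, against 11.3% of all genes, and for 0 that were lower, against 11.8%. The 11 comprised 3 alveolar genes (Car4, Chil3 and Ctsk), 5 monocyte-derived genes (Apoe, Fabp5, Itgam, Spp1 and Trem2) and 3 general genes (Cd300lf, Ctss and Fcgr3).

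Chil3 was higher on each resolving lung array (10.02, 6.90 and 7.12) than on any spleen array (6.15, 5.29 and 4.95), with a difference of 2.55 (SE 0.95, 5.86-fold, limma adjusted p = 0.189). Apoe stood at 7.13, 6.06 and 5.84 in resolving lung, against 5.36, 4.57 and 4.77 in spleen (difference 1.44, SE 0.35, limma adjusted p = 0.0545). The main model held no replicate block, so the values above are unpaired. The replicate numbers were taken to pair these 2 groups on the ground of weak correlations between same-numbered arrays alone (0.17, 0.13 and 0.16). With the number as a block over all 9 arrays, control lung included though not taken as paired, 3 members passed. They were Itgam, Apoe and Chil3 (limma adjusted p = 0.00634, 0.00882 and 0.0358). Fitted on the 6 arrays of these 2 groups with the block, Itgam alone passed (adjusted p = 0.0496). Spp1 stood at 7.26, 3.94 and 4.67 in resolving lung, against 3.51, 2.99 and 3.21 in spleen (difference 2.05, SE 0.71, limma adjusted p = 0.157). Trem2 was below the dim level on all 3 spleen arrays and above it on resolving lung replicate 1 alone, so no fold is given (limma adjusted p = 0.279). Without resolving lung replicate 1, 5 members passed: Itgam (1.80), Spp1 (1.07), Fabp5 (0.63), Trem2 (0.62) and Cd300lf (0.41), with adjusted p-values of 0.00443, 0.0428, 0.0300, 0.0253 and 0.0393. Trem2 and Cd300lf were then below the dim level on all arrays of both groups, so no fold is given for them. Without replicate 1 of every group, 4 members passed: Itgam, Apoe and Fabp5 higher (1.70, 1.28 and 0.70, adjusted p = 0.0205, 0.0196 and 0.0429) and Mrc1 lower (-1.21, adjusted p = 0.0176). Spp1, Trem2 and Cd300lf did not pass there (adjusted p = 0.0894, 0.0555 and 0.0901). Without resolving lung replicate 3 it was 3 members, Itgam, Apoe and Tlr2 (adjusted p = 0.00318, 0.0453 and 0.0342).

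Most general genes and both C1q genes overlapped between the 2 organs. C1qb stood at 9.41, 6.90 and 6.60 in resolving lung, against 8.53, 7.16 and 7.05 in spleen, and Adgre1 at 7.36, 4.41 and 4.64 in resolving lung, against 5.98, 4.64 and 4.64 in spleen. Mrc1 (difference -0.62, SE 0.73) and Mertk (-0.39, SE 0.50) were the 2 members with a difference below 0. Mrc1 was at -1.51 (SE 0.44, limma adjusted p = 0.111) without resolving lung replicate 1, and was the 1 member called lower in any setting, without replicate 1 of every group. For Adgre1, C1qa, C1qb and Csf1r the difference was above 0 with resolving lung replicate 1 and below 0 without it (-0.56, -0.45, -0.83 and -0.48). Beside them, a list of 8 red pulp macrophage genes, the iron-recycling macrophages of the spleen, had mean levels of 3.99, 3.34 and 3.34 in resolving lung, against 5.87, 4.79 and 4.88 in spleen. Spic, their lineage factor, stood at 3.37, 3.01 and 3.02 in resolving lung, against 6.64, 5.38 and 5.49 in spleen (limma adjusted p = 0.00352), and 3 of the 8 genes were called lower in resolving lung. Spleen replicate 1 was the highest spleen array for this list and for Adgre1, C1qa, C1qb, Csf1r, Mrc1 and Mertk. The part of red pulp macrophage transcripts in these levels was not tested.

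Control lung against resolving spleen differs in both organ and injury. Itgam was again the 1 member past the threshold, at 6.71, 6.89 and 6.95 in control lung, against 5.33, 5.80 and 5.44 in spleen (difference 1.33, SE 0.16, 2.51-fold, limma adjusted p = 0.00348), and it passed in all 20 other settings. In this comparison 2.67% of all genes were called higher and 3.49% lower. The members otherwise ran in both directions, with 13 differences above 0 and 18 below (median -0.02). Of the 7 alveolar genes 6 had a difference above 0 (median 0.31), led by Chil3 (2.06, SE 0.95, limma adjusted p = 0.297) and Ear2 (1.11, SE 0.73, limma adjusted p = 0.487). Of the 15 general genes 11 had a difference below 0 (median -0.37). Adgre1 stood at 3.85, 3.47 and 3.11 in control lung, against 5.98, 4.64 and 4.64 in spleen (difference -1.61, SE 0.74, limma adjusted p = 0.297). Mrc1 stood at 5.86, 4.53 and 4.53 in control lung, against 6.91, 5.91 and 6.08 in spleen, without overlap (difference -1.33, SE 0.73, limma adjusted p = 0.392). In all, 11 members lay lower without overlap in control lung, 8 of them general (Adgre1, Csf1r, Ctsb, Ctsd, Ctss, Fcgr1, Mertk and Mrc1) and 3 monocyte-derived (C1qa, C1qb and Clec4n), against 13.8% of all genes. Another 3 lay higher without overlap (Itgam, Ctsk and Msr1), against 11.6%, although Ctsk and Msr1 were below the dim level on all 6 arrays. Leaving out resolving lung replicate 1, which belongs to neither group and enters only the shared estimate of the spread, raised the count of called members to 6. Ctsb (-0.49), Ctss (-0.35), Ctsd (-0.37), Adgre1 (-1.61) and C1qa (-0.97) then fell beside the higher Itgam (adjusted p = 0.0134, 0.0183, 0.0246, 0.0385 and 0.0496). Ctsb also passed without resolving lung replicate 3 (adjusted p = 0.0458). Without replicate 1 of every group the 3 cathepsins did not pass (adjusted p = 0.0966, 0.101 and 0.087 for Ctsb, Ctss and Ctsd). Mrc1 (-1.46), Adgre1 (-1.35), C1qa (-0.72) and C1qb (-1.31) were then called lower and Itgam (1.30) higher (adjusted p = 0.00864, 0.0200, 0.0255, 0.0262 and 0.0219). The 3 comparisons share arrays, so their values for a member are not independent of each other.

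Further genes used as markers of these cells were taken from 2 other lists, and not all of them are exclusive to macrophages. Both lists were chosen with earlier results of these data known, so their calls are no independent support. Of 23 measured monocyte and macrophage genes, 3 were higher and 0 lower in resolving lung than in control lung. Over all genes the shares were 0.133% and 0.323%. Of the 23 differences, 18 were above 0 (median 0.61). The 3 were Gpnmb, a glycoprotein of lipid-laden phagocytes (7.63, 6.91 and 6.55 in resolving lung, 4.34, 4.02 and 4.37 in control lung, limma adjusted p = 0.0130), Mmp12, the macrophage elastase (5.63, 6.76 and 6.38 in resolving lung, 3.23, 2.78 and 3.23 in control lung, limma adjusted p = 0.00967), and C3ar1, the C3a receptor (6.82, 5.46 and 5.21 in resolving lung, 3.23, 3.00 and 3.23 in control lung, limma adjusted p = 0.0339). Mmp12 and C3ar1 were below the dim level on all 3 control arrays. Mmp12 was lowest of its group on resolving lung replicate 1, and all 3 genes passed without that array as well (adjusted p = 0.00131, 0.0045 and 0.0015 for Mmp12, Gpnmb and C3ar1). Without replicate 1 of every group Mmp12 and C3ar1 passed (adjusted p = 0.0221 each) and Gpnmb did not. Against spleen, 8 of the 23 were higher and 1 lower in resolving lung, where the shares over all genes were 2.64% and 2.82%. Among the 8 was Ccr2, the monocyte chemokine receptor that activated T cells also carry, at 9.48, 9.59 and 9.35 in resolving lung, against 7.53, 7.89 and 7.54 in spleen (limma adjusted p = 0.00135). The 8 also included Nr4a1, which was high on all 9 arrays (9.24 to 10.91). Cbr2, another of them, had a lower mean in resolving lung (6.43) than in control lung (7.85). Which cells these transcripts came from was not tested. Of 40 measured phagocyte genes, 0 passed against control lung by limma (19 had an unadjusted p under 0.05), with 38 differences above 0 (median 0.88), while 9 were higher and 1 was lower against spleen. Ms4a7, a membrane protein gene named after its values were seen, was the 1 of the 40 that passed against control lung without resolving lung replicate 1 (adjusted p = 0.0115) and without replicate 1 of every group (adjusted p = 0.0391). The chemokine Cxcl16 stood at 7.68, 6.62 and 6.12 in resolving lung, 5.19, 4.42 and 4.49 in control lung, against 3.14, 2.90 and 2.76 in spleen. It did not pass against control lung (limma adjusted p = 0.0620) and was called higher against spleen (limma adjusted p = 0.00209).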

How the data were processed

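Per the labels' protocols, 225 ng of RNA from each Treg sample went onto an Affymetrix Mouse Gene 2.1 ST array. The authors deposited log2 values, 31351 rows by 9 arrays. The submitters' processing notes name RMA, Partek and Affymetrix Expression Console without versions. The log2 scale was inferred from the range of the deposited values (1.07 to 12.85). RMA makes the arrays' distributions alike and compresses differences of dim genes. The number of arrays limits the precision.

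Accessions were matched to symbols with a RefSeq gene list (GRCm38.p6). In all, 21057 rows had 1 symbol, 10294 (32.8%) stayed unnamed and out of the tests, and the highest of several rows stood for each of 34 genes, none of them a member. All 9 arrays were fitted in 1 model with 3 group means (limma 3.58.1, lmFit and eBayes, R 4.3.3, data.table version 1.17.8; 6 residual and 2.29 prior degrees of freedom), two-sided, with Benjamini-Hochberg adjustment over 21023 genes and a threshold of 0.05. The method was tested on simulated data with independent normal noise for each gene and the same spread on every array. That setting holds no outlying array such as resolving lung replicate 1, so it does not show how the method behaves with one. With 3 arrays a group, the smallest p of an exact permutation test is 0.1, so none was used. No fold is given where a gene was dim on all arrays of 1 group.

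Groups and replicate numbers came from the titles. The descriptions give spleen replicates 2 and 3 the same name. Deviations from group means correlated between same-numbered arrays at 0.17, 0.13 and 0.16 for resolving lung with spleen, so these were taken as paired. The main model did not use this pairing, which entered only the settings with the replicate block.

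The members, sets and lists were chosen with earlier results of these data known. Full values are given for members past the threshold and for a fixed set from each role, and of each further list for genes among the 3 of smallest p. Alternatives covered filters, normalisation, array weights, the replicate block and left-out arrays.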

Additional observations from a re-analysis of the deposited data

How the results depend on the processing

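Over 20 other settings, 17 members were followed, Itgam and a fixed set from each role, and not every member whose values are printed. Itgam, the 1 of them with a call, kept it in both comparisons with spleen. Of 1008 values, 943 kept their direction and their side of the threshold, 24 passed only in the other setting, and 41 uncalled differences changed sign. The count of members called in resolving against control lung was 0. It was 1 among genes above the dim level (Ctsb) and 1 with the replicate block (Apoe), and 0 to 1 when arrays were left out. Against spleen it was 1 in resolving lung. It was 2 with a variance trend, median centring, repeated quantile normalisation or array weights, 3 among genes above the dim level and 3 with the replicate block, and 1 to 5 when arrays were left out. In control lung against spleen it was 1. It was 4 with only the 2 groups compared, 2 with array weights, 2 with the replicate block, 4 with the replicate block and only the 2 groups compared, and 1 to 6 when arrays were left out. Same-numbered arrays correlated at 0.29, 0.07 and 0.10 in resolving with control lung and at 0.08, -0.06 and 0.05 in control lung with spleen, so the number was taken as a pairing only for resolving lung with spleen, and in the other comparisons not every array correlated best with its own number. With the block, Apoe had an adjusted p of 0.0462 in resolving against control lung, Mertk 0.0304 in control lung against spleen, and of the further lists Lilrb4a passed (0.0286) and C3ar1 did not in resolving against control lung.

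Over all genes, 96 were called in resolving against control lung (238 among genes above the dim level, 63 with array weights, 15 with the replicate block, 0 with only the 2 groups with or without the block, 7 without replicate 1 of every group, and 4 to 212 when arrays were left out, each of which moved the count by over 1.5 times). In resolving lung against spleen 1148 were called (704 with only the 2 groups, 175 with the replicate block on these, 506 without replicate 1 of every group, and 508 to 1131 when 1 array was left out, where resolving lung replicate 2 and each spleen replicate moved it by over 1.5 times). In control lung against spleen 1295 were called (705 without replicate 1 of every group and 681 to 1793 when 1 array was left out, where control lung replicates 1 and 3 and each spleen replicate moved it by over 1.5 times).

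Uncalled differences changed sign. In resolving against control lung, Car4 was at -0.23 with array weights. When arrays were left out, Car4 ranged from -0.72 to 0.78, Chil3 from -0.51 to 1.24, Marco from -0.26 to 1.20, Mrc1 from -0.19 to 1.19 and Ear2 from -1.40 to 0.02. In resolving lung against spleen, array weights gave C1qb -0.33, Adgre1 -0.06 and Csf1r -0.09. The ranges were -0.83 to 0.57 for C1qb, -0.56 to 0.91 for Adgre1, -0.48 to 0.66 for Csf1r, -0.35 to 1.11 for Marco, -0.28 to 1.14 for Ear2, -0.45 to 0.89 for C1qa, -0.06 to 0.39 for Ctsd and -0.13 to 0.23 for Arg1 (-0.04 without spleen replicate 1). Without replicate 1 of every group, Marco and Car4 were at -0.05 and Chil3 at 0.23 in resolving against control lung, and against spleen Ear2 was at -0.03, C1qa at -0.14, Adgre1 at -0.11, Csf1r at -0.1, Marco at -0.23, C1qb at -0.35, Arg1 at -0.13 and Ctsd at 0.00. In control lung against spleen, repeated quantile normalisation gave Apoe 0.02. The ranges were -0.28 to 0.14 for Apoe, -0.15 to 0.06 for Trem2 (-0.1 without control lung replicate 1), -0.30 to 0.13 for Marco and -0.16 to 0.12 for Arg1. The cause of these changes was not tested. Leaving out replicate 1 of every group and the block on 2 groups were chosen after seeing the data. The alveolar mean less the general mean could not change under the 2 alternatives tried, so these say nothing of its stability. Median centring shifts all genes of an array alike, and leaving out members dim on every array drops only Arg1, which is in neither mean.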

Other observations

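Markers of other cells were read from lists of the same kind. B cell genes had 0 of 12 past the threshold in resolving against control lung (median -0.72), 7 lower in resolving lung against spleen and 3 lower in control lung against spleen. The 14 dendritic cell genes, 9 of them below the dim level on all 9 arrays, had 0, 1 and 1 higher, and the gene called in both comparisons with spleen was Itgae, an integrin chain that tissue Tregs carry too. The 16 neutrophil genes had 0 called in resolving against control lung and 1 lower against spleen in each lung group, the granule enzyme Mpo. Endothelium and fibroblast lists, with 12 genes each, had 0 called in the 3 comparisons. The 8 erythroid and platelet genes had 0 called in resolving against control lung or spleen and 2 lower in control lung against spleen. Of 17 epithelial genes, 5 were higher in resolving lung and 8 higher in control lung against spleen. Of 9 Treg identity genes, 0 were called in resolving against control lung, 1 was higher in resolving lung against spleen, and 1 was higher and 1 lower in control lung against spleen. The red pulp list had 0 of 8 called in resolving against control lung and 4 lower in control lung against spleen. The further alveolar list had 0 of 16 called in each comparison with spleen. Against spleen, control lung had 4 of 23 further monocyte genes higher and 0 lower, and 2 of 40 phagocyte genes higher and 1 lower.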
